A study of Homo sapiens with 3 samples.

Results

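Genes that answer to the hypoxia-inducible factors (HIF) were read on 3 expression arrays of KYSE150 cells, an established human line of oesophageal squamous carcinoma. The set comprised 10 genes: ANKRD37, HILPDA, BNIP3, NDRG1, CA9, ADM, VEGFA, EGLN3, KDM3A and ERO1A. Of these, 9 had probe sets annotated to that single symbol, 33 probe sets in all out of 49395 on the array. For CA9, which encodes a carbonic anhydrase of the cell surface, 0 such probe sets were found and no level is given. The genes were chosen by their known role together with their log2 values on these same 3 arrays, so what follows describes the arrays and supports no inference about the set.

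The 3 groups differed in the plasmid transfected 48 h before RNA was taken. The control received vector, the second group received the wild-type form of lysyl oxidase like 2 (LOXL2 WT) in pcDNA3.1, and the third received LOXL2 delta72, a form the labels name but do not describe, in the same plasmid. All groups were grown in the same medium with fetal calf serum, and the labels mention no change of oxygen. Each group was 1 array, so no replicate spread, SE or p-value can be given, and the number of arrays limits the precision. The share of cells that took up plasmid is not given in the sources used here. In such bulk RNA, fewer responding cells and less RNA in each cell cannot be told apart.

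HIF is a pair of proteins, an oxygen-controlled alpha subunit and the stable partner ARNT. When oxygen is ample, prolyl hydroxylases (the EGLN enzymes) mark the alpha subunit, the VHL ubiquitin ligase binds the mark, and the subunit is destroyed. When oxygen is short the subunit persists, enters the nucleus and binds hypoxia response elements near genes for glycolysis, mitophagy, lipid storage, acid balance and blood vessel growth. The control is mostly on the protein, so the mRNA of a HIF subunit need not follow HIF activity.

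The upstream sequences are shown for the 4 genes with the largest LOXL2 delta72 minus LOXL2 WT differences among those that had a promoter entry, because these genes differed in the same direction between both forms. The table of RefSeq promoters used here (GRCh38.p14) covered 7 of the 10 genes, with 8 start sites, and sequences of HILPDA, NDRG1 and VEGFA were not analysed here. Each sequence is the 250 bases before the annotated start, 5′ to 3′ on the strand of the gene. Capitals mark the core of the hypoxia response element, searched as ACGTG and GCGTG on both strands (CACGT and CACGC when read on the opposite strand). Adjacent capitals that read CACGTG hold a match on each strand.
ANKRD37, chr4:185396591-185396840, plus strand: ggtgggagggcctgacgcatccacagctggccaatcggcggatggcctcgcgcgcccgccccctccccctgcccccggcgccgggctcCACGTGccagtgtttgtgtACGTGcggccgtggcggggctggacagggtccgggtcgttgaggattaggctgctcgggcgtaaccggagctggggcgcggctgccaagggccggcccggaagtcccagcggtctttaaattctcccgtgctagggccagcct
ERO1A, chr14:52695559-52695808, minus strand: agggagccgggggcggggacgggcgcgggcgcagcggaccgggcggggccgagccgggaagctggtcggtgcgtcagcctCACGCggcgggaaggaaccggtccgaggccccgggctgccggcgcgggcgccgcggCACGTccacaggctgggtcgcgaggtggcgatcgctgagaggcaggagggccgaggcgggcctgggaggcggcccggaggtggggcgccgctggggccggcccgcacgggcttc
BNIP3, chr10:131981924-131982173, minus strand: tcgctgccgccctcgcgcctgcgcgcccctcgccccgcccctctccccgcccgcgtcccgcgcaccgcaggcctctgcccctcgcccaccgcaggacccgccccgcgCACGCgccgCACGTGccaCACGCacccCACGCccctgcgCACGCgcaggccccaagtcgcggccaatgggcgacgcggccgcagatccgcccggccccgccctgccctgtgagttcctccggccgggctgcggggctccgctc
ADM, chr11:10304823-10305072, plus strand: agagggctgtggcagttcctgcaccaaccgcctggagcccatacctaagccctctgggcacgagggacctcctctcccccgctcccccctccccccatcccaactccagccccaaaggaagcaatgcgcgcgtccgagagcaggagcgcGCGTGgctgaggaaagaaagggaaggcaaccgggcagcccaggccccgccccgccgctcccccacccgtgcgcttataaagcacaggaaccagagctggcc

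The ANKRD37 window held 3 matches at 2 separate places, 1 of them the palindrome CACGTG, and the BNIP3 window held 6 matches at 5 places, also with 1 palindrome. ERO1A had 2 separate matches and ADM had 1. Both KDM3A starts shared 1 GCGTG, CA9 had 1 CACGT lying 18 to 14 bases before its start, and the EGLN3 window held 0. A match was therefore found for 6 of the 7 genes with an entry, and at 7 of their 8 start sites (87.5%). A match was held by 43.2% of all 35116 start sites listed, and by 53.9% of the 14409 start sites of genes that passed the brightness filter described next. CACGTG stood in 2 of the 8 windows, against 6.34% of all start sites. Its share among start sites of genes that passed the filter was not computed. A match is a description of letters and was not tested as a binding site.

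**Figure D1:**
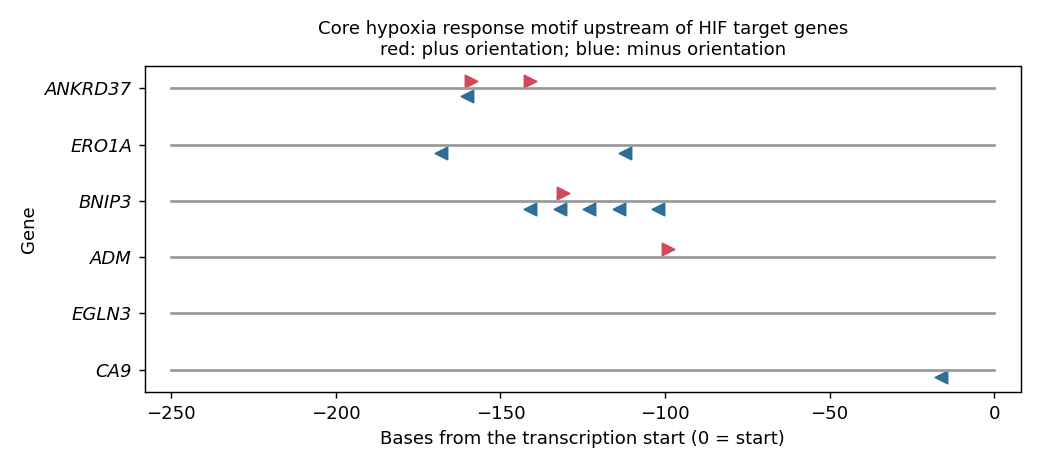
Positions of the core hypoxia response motif (ACGTG or GCGTG) in the 250 bases before the start of 6 of the 7 genes with an entry (KDM3A, which has overlapping windows of 2 starts, is not drawn), with distance in bases on the x axis and 1 line per gene. Red triangles are matches on the strand of the gene and blue ones on the opposite strand. BNIP3 carries 6 matches between 143 and 100 bases upstream, and the EGLN3 line is empty.

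Values are log2 intensities, so a difference of 1 is 2-fold. Each gene is represented by its brightest probe set, and 8 of the 9 measured genes passed a filter at log2 5.27, the 40th percentile of all probe sets other than controls. The filter left 12232 genes in all. The SD quoted with a difference is that over a gene's probe sets above the filter. It measures disagreement between probes on the same arrays, which share the RNA, and holds no biological error. Among the 33 probe sets, 11 carried the suffix x and 6 the suffix s, which in the maker's naming warn that some or all probes can also match other transcripts. The brightest probe sets of HILPDA and ADM carried x. Those of BNIP3, NDRG1 and VEGFA carried s.

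By brightest probe set, the LOXL2 WT array mostly read lowest and the LOXL2 delta72 array mostly highest. For 6 of the 8 genes above the filter the order was WT, then control, then delta72, an order that 9.95% of all 12232 genes had. WT was lowest for 7 of the 8, against 35.1% of all genes. Differences between the forms ran up to 2.45-fold, in ANKRD37, while against the control the largest were 2.11-fold lower with WT, in HILPDA, and 1.35-fold higher with delta72, in ANKRD37.

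**Figure D2:**
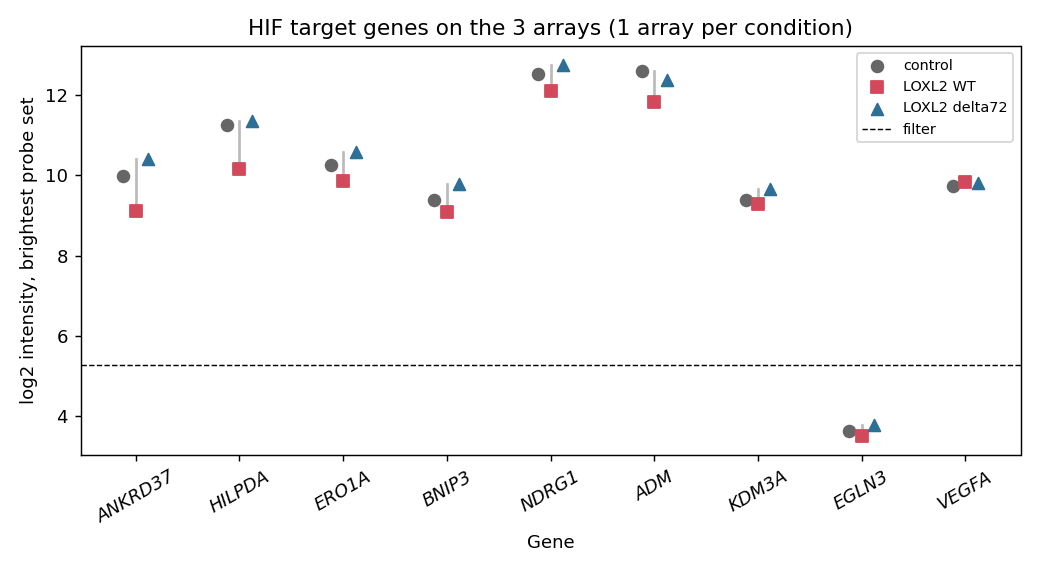
Log2 intensity of the brightest probe set of 9 HIF target genes on the control (grey circle), LOXL2 WT (red square) and LOXL2 delta72 (blue triangle) arrays, 1 array each. The dashed line is the filter at 5.27. The red square is the lowest point for each gene other than VEGFA, and EGLN3 lies below the filter.

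ANKRD37 encodes a small ankyrin repeat protein whose gene is a direct HIF target. Its brightest probe set read 9.98 on the control array against 9.12 with WT and 10.41 with delta72. The WT array was thus low and the delta72 array high, with the control between them. The gene was 1.29 higher with delta72 than with WT, the largest positive difference of the 12232 genes. Against control it was at -0.86 with WT and 0.43 with delta72. A dimmer probe set below the filter had the same order, at 4.99, 4.31 and 5.33, and differed by 1.02 between the forms.

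Among the genes that act on organelles and lipid, HILPDA stood out. It encodes a lipid droplet protein that restrains the triglyceride lipase of fat stores. HILPDA read 11.25 in control, 10.17 with WT and 11.36 with delta72. Here the WT array alone was low, and the other arrays lay close together. The WT minus control difference was -1.08 (SD 0.02 over 2 probe sets), or 2.11-fold lower, and delta72 was 2.27-fold above WT (log2 1.18, SD 0.04). Delta72 minus control was 0.11 (SD 0.01), below the 0.144 pooled SD between probe sets of a gene in that comparison. Both HILPDA probe sets carry the suffix x.

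BNIP3, a mitochondrial outer membrane receptor for mitophagy, read 9.38, 9.10 and 9.79 on the control, WT and delta72 arrays. The delta72 array was the one farther from control, at 0.41, with WT at -0.28. Its probe sets disagreed on the first of these. The dimmer one, at 5.57, 5.15 and 5.50, gave -0.07 for delta72 minus control and -0.43 for WT minus control. Delta72 minus WT was 0.69 in the brighter and 0.35 in the dimmer probe set (SD 0.24). The brighter one carries the suffix s, and the dimmer one carries neither s nor x.

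ERO1A encodes the oxidase that passes oxidising power to protein disulphide isomerase in the endoplasmic reticulum, and so it also belongs to the folding machinery there. It read 10.26 on the control array against 9.87 with WT and 10.57 with delta72, which puts WT low and delta72 high. Delta72 was 0.71 above WT (1.63-fold, SD 0.11 over 2 probe sets). The second probe set, at 9.09, 8.57 and 9.11, placed delta72 level with control, at 0.02, where the brighter one gave 0.32. Both probe sets had WT lowest, at -0.39 and -0.53 against control.

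NDRG1, a cytoplasmic stress and differentiation protein induced by hypoxia, was covered by 6 probe sets. The brightest read 12.54 in control, 12.10 with WT and 12.77 with delta72. Each of the 6 had the order WT, control, delta72. Delta72 minus WT ranged from 0.67 to 0.94 over them, and each of the 6 reached 1.5-fold. WT minus control ranged from -0.88 to -0.44 and delta72 minus control from 0.06 to 0.23, so the gap between WT and control was the larger of the 2 in each probe set. The brightest NDRG1 probe set gave the smallest WT difference of the 6.

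Of the secreted factors, ADM encodes adrenomedullin, a vasodilator peptide, and read 12.60 on the control array against 11.83 with WT and 12.38 with delta72. It was low with WT, at -0.78 (1.71-fold, SD 0.17 over 3 probe sets), and unlike the genes above it stayed under control with delta72 too, at -0.22 (SD 0.06). All 3 ADM probe sets had this order. Delta72 was 0.55 above WT (SD 0.11), and its dimmest probe set gave 0.73.

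VEGFA, the main growth factor for blood vessels, did not share the pattern in its brightest probe set. That probe set read 9.74 in control, 9.84 with WT and 9.82 with delta72, with WT highest and the 3 values close. Its 10 probe sets differed among themselves. Delta72 minus WT ranged from -0.02 to 0.66, with 9 of 10 above 0, and WT minus control from -0.53 to 0.10, with 8 of 10 below 0. The largest of these differences came from the dimmest VEGFA probe set, which read 5.22, 4.69 and 5.35 and lay below the filter. The second brightest, at 9.50, 9.44 and 9.50, gave 0.06 between the forms. With the median over the VEGFA probe sets above and below the filter, delta72 minus WT was 0.15 and WT minus control was -0.21, the opposite sign to the brightest.

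The last pair are oxygen-dependent enzymes that HIF itself induces. KDM3A, a demethylase of histone H3, read 9.39 on the control array against 9.28 with WT and 9.67 with delta72. Its delta72 array was high and the other arrays were near each other. Delta72 minus WT was 0.39 (SD 0.02 over 3 probe sets) and delta72 minus control was 0.28 (SD 0.13), while WT minus control was -0.11 (SD 0.11) with 1 of the 3 probe sets above 0.

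EGLN3, the prolyl hydroxylase that is itself a HIF target, read 3.61, 3.48 and 3.77 on the control, WT and delta72 arrays in its brightest probe set. Its 3 probe sets lay between 3.03 and 3.77. Background probe sets with 14 to 16 G and C bases covered 3.18 to 4.41 on the control array, and those with 3 to 13 covered 2.29 to 2.91. The G and C content of the EGLN3 probes was not examined, so a level of EGLN3 above background was not shown. Its probe sets also split in sign, from -0.32 to 0.30 for delta72 minus WT.

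**Figure D3:**
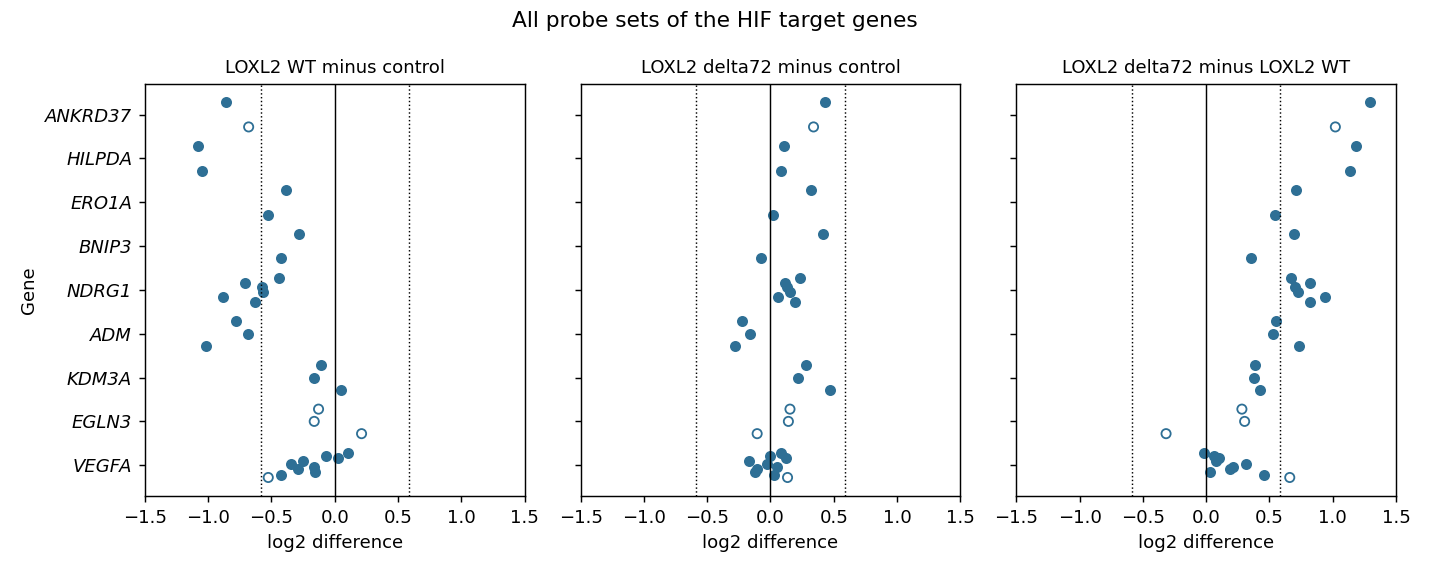
Log2 differences of all 33 probe sets of 9 HIF target genes, 1 row of points per gene and 1 panel per comparison. Filled points passed the filter, open ones did not, and the dotted lines mark 1.5-fold. In the right panel 31 of 33 points lie above 0 and 14 reach 1.5-fold, all 6 of NDRG1 among them. In the middle panel 0 reach it. Of all genes, by brightest probe set, 50.4% were above 0 and 0.18% that much higher in the right comparison. In the middle one 1.28% were that much higher and 0.499% lower. The share over all probe sets was not computed, and probe sets of a gene are not independent.

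Counted by size, the difference between the forms was the one that held the most of these genes. With delta72 against WT, 5 of the 8 genes above the filter were at least 1.5-fold higher (ANKRD37, HILPDA, ERO1A, BNIP3 and NDRG1), where 0.18% of all genes were, and 2 were at least 2-fold higher, where 0.0164% were. ADM fell just short of that mark, at 1.47-fold. With the median over probe sets BNIP3 dropped below 1.5-fold, at 0.52, which left 4 genes. The same contrast helped choose the genes, so nothing is read from the gap. The median of the 8 was 0.68, with 7 higher, where 50.4% of all genes were, and the median of all genes was 0.001285.

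With WT against control, 3 of the 8 were at least 1.5-fold lower (HILPDA, ANKRD37 and ADM), where 0.867% of all genes were, and 0 were that much higher, where 1.85% were. The median was -0.41, with 7 of 8 below 0, where 51.7% of all genes lay, and that of all genes was -0.00942. With delta72 against control, 0 of the 8 reached 1.5-fold in either direction, where 1.28% of all genes were that much higher and 0.499% lower. Here the median was 0.26, with 7 of 8 above 0, and 49.7% of all genes lay above 0. The WT array enters its comparison with control and also that between the forms, and the control array enters both comparisons with control, so these are not independent readings of the genes.

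**Figure D4:**
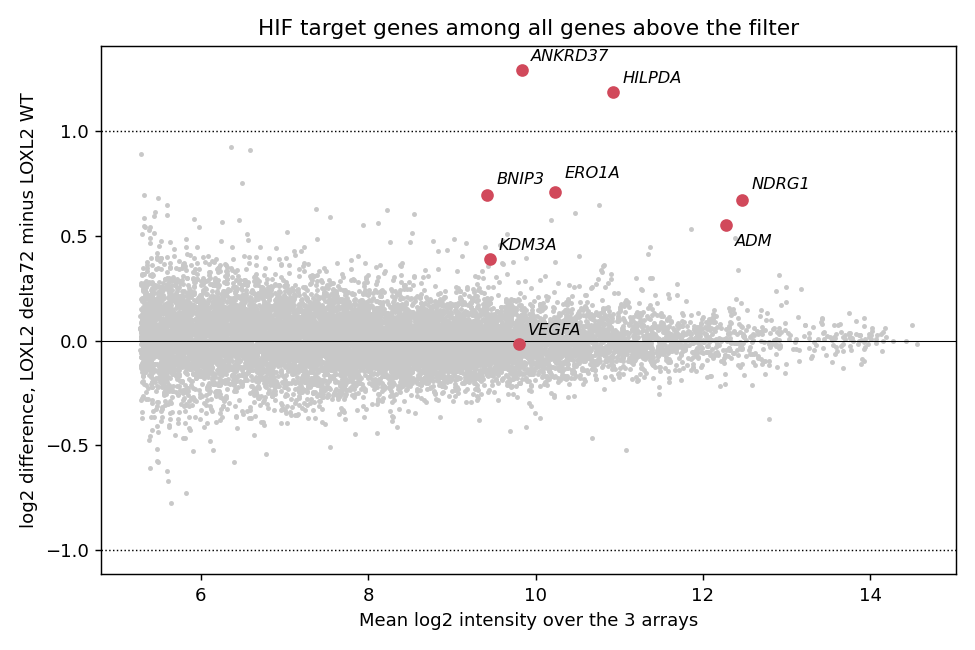
Log2 difference between LOXL2 delta72 and LOXL2 WT (y axis) against the mean log2 intensity over the 3 arrays (x axis) for the 12232 genes above the filter in grey, with the 8 HIF target genes in red. Dotted lines mark 2-fold. ANKRD37 at 1.29 and HILPDA at 1.18 are the points above the upper line, and VEGFA lies at -0.02.

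The background control probe sets also read lowest on the WT array in most cases. Of the 23 background probe sets, 16 read lower on the WT array than on the control array and 14 had the order WT, delta72, control. The size went with the G and C content of the probes. Sets with 4 to 10 such bases read up to 0.029 higher on WT than on control. All 12 sets with 14 or more read lower, from -0.10 at 14 bases to -0.285 at 24. The G and C content of the members' probes was not examined. Over the 23 background probe sets, the largest difference was 0.285 for WT against control, 0.173 for delta72 against control and 0.152 between the forms. The differences between the forms of the members above the filter other than VEGFA exceed the last of these. Against control, WT differences of BNIP3, KDM3A and VEGFA and delta72 differences of HILPDA and VEGFA lie within those sizes when sign is disregarded. Those of VEGFA and HILPDA in this list were positive, from 0.09 to 0.11. Positive background differences reached only 0.029 for WT and 0.054 for delta72 against control. The part of this shift in the results was not tested. The gap between 3′ and 5′ probe sets of ACTB, a reading of RNA integrity, was 1.26 in control, 1.46 with WT and 1.32 with delta72. The same gap in GAPDH was -0.0058, 0.0029 and 0.002, with no such spread. The part of the ACTB gap was not tested either.

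LOXL2 itself read 7.46 on the control array against 14.05 with WT and 14.06 with delta72 in its brightest probe set, high on both arrays labelled with it. Another LOXL2 probe set, the brightest of the 4 on the control array, read 8.81, 8.32 and 8.66 and was not raised. Medians over all probe sets lay between 5.93 and 5.95. Of 10 squamous markers, 7 had a probe set and all 7 passed the filter, with a summed level of log2 13.82, 13.81 and 13.72 on the control, WT and delta72 arrays. Within them KRT14 was at -0.67 with WT and -0.66 with delta72 against control, and DSC3 at -0.53 and -0.86. Markers of other cells passed in 1 of 7 measured for fibroblasts (summed level 7.49, 7.49 and 7.43), 2 of 5 for leukocytes (9.20, 8.72 and 8.92) and 3 of 4 for endothelium (7.63, 7.63 and 7.61). The leukocyte sum was lowest on the WT array and came mostly from CD68, a lysosomal gene, at 8.97, 8.44 and 8.65, while PTPRC, which defines leukocytes, read 2.83, 3.05 and 3.08.

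Further targets of HIF, a list of 48 genes drawn from textbook knowledge with earlier results of these arrays known, had a median difference between the forms of the same sign and smaller size. Of the 36 above the filter, 32 were higher and 4 lower with delta72 than with WT, where 50.4% of all genes were higher. At least 1.5-fold higher were 0 of them, where 0.18% of all genes were. The median was 0.22. Against control the median was -0.15 with WT, with 23 of 36 lower (51.7% of all genes) and 2 at least 1.5-fold lower (0.867% of all genes). With delta72 it was 0.05. WT was the lowest array for 21 of the 36, and for 35.1% of all genes.

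The 5 of them with the largest differences between the forms were all higher with delta72. DDIT4, a stress-induced brake on mTOR signalling, was 0.49 higher with delta72 than with WT, and at -0.66 with WT against control. VLDLR, a lipoprotein receptor, was 0.48 higher with delta72, and BHLHE40, a transcriptional repressor, 0.47 higher. EFNA1, an ephrin ligand, was 0.46 higher (SD 0.02 over 2 probe sets). P4HA1, the catalytic subunit of collagen prolyl hydroxylase, was 0.45 higher. In DDIT4, VLDLR and BHLHE40 the delta72 array stayed slightly under control, at -0.17, -0.05 and -0.17, whereas EFNA1 and P4HA1 were at 0.16 and 0.24.

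Genes of glycolysis and glucose uptake, a large HIF-controlled pathway, were read in 17 of 18 cases, each above the filter. With delta72 against WT 16 of 17 were higher, where 50.4% of all genes were, and 0 reached 1.5-fold, where 0.18% did, with a median of 0.16. With WT against control 14 of 17 were lower (51.7% of all genes), with a median of -0.22. The aldolase gene ALDOC was the 1 at least 1.5-fold lower (0.867% of all genes). The median of -0.22, and the -0.15 of the other HIF targets, lie within the largest background difference of 0.285 for that comparison. The median of 0.16 between the forms is near the largest background difference there, 0.152. With delta72 against control the median was 0.02. ENO2, an enolase, and HK2, the inducible hexokinase, differed by 0.51 each between the forms. ALDOC read 9.58, 8.51 and 8.99 on the control, WT and delta72 arrays, so that delta72 was between the other arrays, at 0.48 above WT. GPI was 0.44 and ALDOA 0.31 above WT. WT was the lowest array for 13 of the 17, against 35.1% of all genes.

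The genes that make and control HIF differed little between the forms. Of 17 measured subunits, hydroxylases, ligase parts and coactivators, 4 were higher and 13 lower with delta72 than with WT, where 50.4% of all genes were higher and 49.3% lower. Their median was -0.03, and 0 were at least 1.5-fold higher, where 0.18% of all genes were. EP300, a coactivator, differed most, at -0.34, from 6.25, 6.78 and 6.45 on the control, WT and delta72 arrays. ARNT2 was at -0.22 and HIF1AN, the asparaginyl hydroxylase that inhibits HIF, at -0.16. EPAS1, which encodes the HIF2 alpha subunit, was at 0.22 and SIAH2, a ligase for prolyl hydroxylases, at 0.17. HIF1A, named after its values were seen, read 11.59, 11.43 and 11.42, so the transcript of the best known alpha subunit was at -0.01 between the forms (SD 0.07 over 8 probe sets). With WT against control 8 were higher and 9 lower, where 51.7% of all genes were lower, with a median of -0.02. The largest WT differences were in the coactivators EP300 (0.53, 1 probe set) and CREBBP (0.53, SD 0.36 over 5 probe sets). CREBBP, named after its values were seen, was at 0.46 with delta72 against control. WT was the lowest array for 4 of the 17, against 35.1% of all genes.

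**Figure D5:**
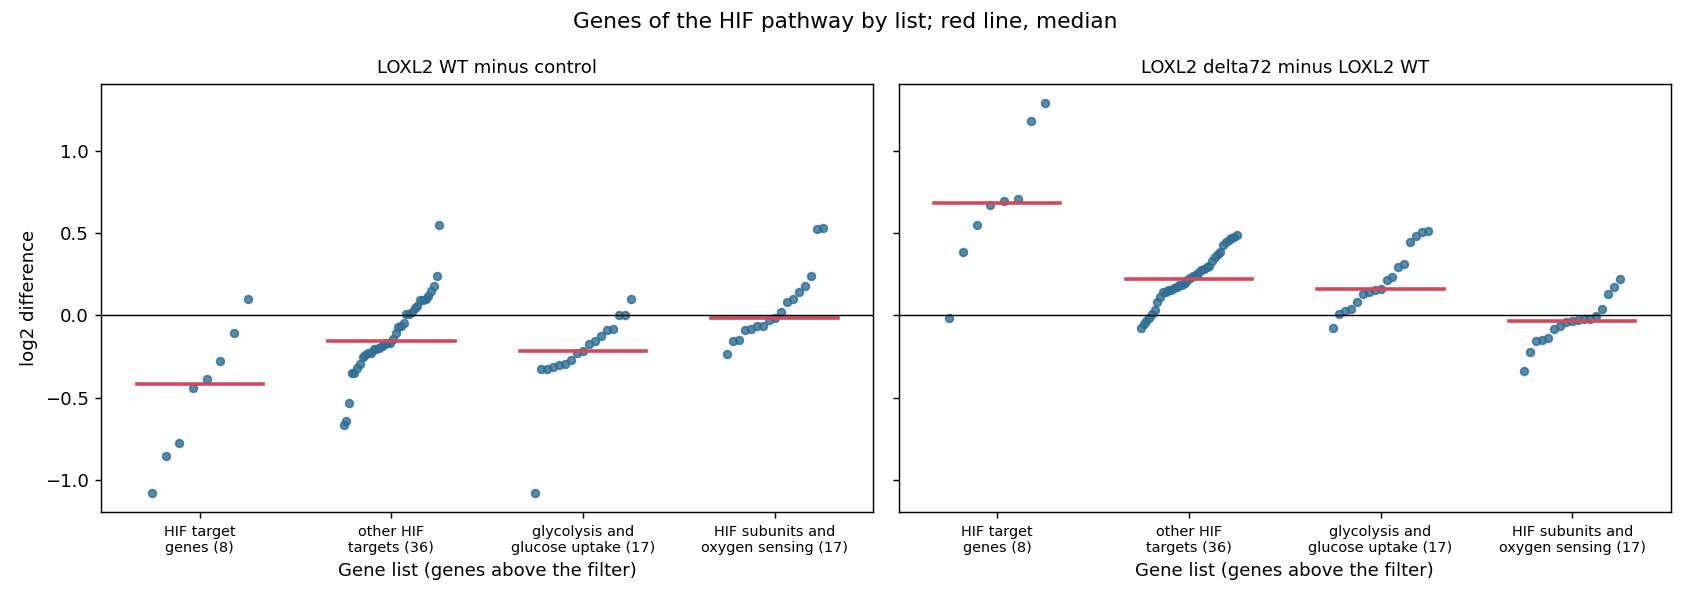
Log2 differences of single genes above the filter in 4 lists, for LOXL2 WT minus control (left) and LOXL2 delta72 minus LOXL2 WT (right), with red lines at the list medians. On the right the medians are 0.68 for the HIF target genes, 0.22 for other HIF targets, 0.16 for glycolysis and -0.03 for HIF subunits and oxygen sensing.

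A low reading on the WT array against both other arrays was uncommon. By at least 1.5-fold on both sides it was seen in 8 of 12232 genes (0.0654%), 2 of them HIF targets, HILPDA and ANKRD37. The count was 4 with the median over probe sets and 5 with a filter at the 60th percentile. It was 9 with a common median over genes and 11, of 18132 genes, with no filter. Ranked by the smaller of the 2 gaps, HILPDA was first (1.08), followed by the epithelial transcription factor gene EHF (0.92), CARD17P (0.89), ANKRD37 (0.86) and the tankyrase gene TNKS2 (0.66). OSMR (0.64), the acute phase gene SAA1 (0.63), the clock gene PER1 (0.59), CEL (0.58) and ADM (0.55) completed the first 10. In EHF and OSMR the delta72 array was also below control, at -0.74 and -0.53. NDRG1 ranked 30 and ERO1A 44 by this measure, BNIP3 183, KDM3A 1456 and VEGFA 7609.

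Likeness to ANKRD37 was measured as the Euclidean distance between pairs of differences from control, over the 3 arrays. The nearest gene was TNKS2 (distance 0.27), then HILPDA (0.40), KLHL34 (0.44), NDRG1 (0.46) and ERO1A (0.48). The first of these read 6.73, 6.07 and 6.97 on the control, WT and delta72 arrays, on 1 probe set. KLHL34, at 5.40, 4.93 and 5.63, lay near the filter on 1 probe set. With 3 arrays such distances describe the readings and nothing further.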

How the data were processed

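RNA (100 ng) was labelled with biotin as cRNA for Affymetrix 3' arrays, per the labels' protocols. Partek and Affymetrix Expression Console are named in the submitters' processing notes. Algorithm, background correction and tool versions were not given in the sources used here. Values came as 1 table that the authors deposited, and were taken as log2 intensities because all lay between 2.07 and 14.56, and used as deposited.

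Probe sets were named through a platform annotation table. 44988 had 1 symbol, 1832 several and 2473 none, and all 33 probe sets of the HIF target genes matched RefSeq identifiers. The brightest probe set by mean stood for a gene, with a filter at the 40th percentile. Differences and counts were computed in Python 3.11.15 with pandas 2.3.3. The counting was tested on simulated data. No p-value was computed, since each condition had 1 array.

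The genes and lists were chosen with earlier results of these data known. Genes named were the 10 set genes, up to 5 per pathway list by absolute difference between the forms, the 10 lowest on WT, the 5 nearest ANKRD37, and LOXL2. Alternatives were 3 scalings, the median over probe sets, no filter and a filter at the 60th percentile.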

Additional observations from a re-analysis of the deposited data

How the results depend on the processing

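As deposited and under the 5 alternatives that kept the 8 genes, their medians ran from 0.59 to 0.69 between the forms, from -0.53 to -0.40 for WT against control and from 0.16 to 0.26 for delta72 against control. With no filter EGLN3 entered, and the median for WT was -0.39. From 4 to 5 genes were at least 1.5-fold higher with delta72 than with WT, where BNIP3 was lost with the median over probe sets. From 3 to 4 were that much lower with WT than control, where NDRG1 was gained.

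With the median over probe sets, medians of the 8 were 0.59, -0.53 and 0.16 in that order of comparisons, those of other HIF targets were 0.16 between forms and -0.11 for WT, and VEGFA turned to 0.15 between forms and -0.21 for WT. With a common median over genes, WT medians were -0.20 for other targets, -0.058 for HIF subunits and -0.26 for glycolysis, and other targets were at 0.0176 for delta72 against control. Without the filter other targets were at 0.18 between forms and 0.0219 for delta72. At the 60th percentile they were at 0.089 for delta72. Genes of the whole array at least 1.5-fold lower on WT than on both other arrays numbered 8 as deposited. With the median over probe sets they numbered 4, at the 60th percentile 5, with a common median 9 and without the filter 11. The cause was not tested, beside fewer or more genes entering. Of single-gene differences over all alternatives, 138 moved by less than the pooled probe SD, 4 moved by more and 2, both VEGFA, reversed. The 138 include those without the filter and at the 60th percentile, where a gene's value could not change. All that moved by more or reversed did so with the median over probe sets.

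No paired analysis was possible because each condition had 1 array. Signal near background limits EGLN3 and the dim probe sets.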
